A study of Homo sapiens with 6 samples.

Results

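A set of 33 genes of cytosolic small subunit ribosomal proteins was followed through ribosome footprints in CHL-1 cells, an established line from human melanoma. Members were taken by name: every gene with a current RPS symbol, RPSA and FAU, without the RPS6 kinase genes. They are 33 of 11227 named genes with a row in the footprint tables, and all 33 were listed in each of the 3 tables. Where a gene had several RefSeq transcripts, the one with the greatest summed depth stood for it, and 9 members had more than 1. The members held 1.76% of all coding depth in the CRISPR table, 1.37% in the AZC + MG132 table and 1.65% in the parental table.

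The small subunit carries its ribosomal proteins around the 18S ribosomal RNA. It binds the messenger, scans to the start codon and checks the pairing of codon and tRNA. Messengers of ribosomal proteins usually begin with a C followed by a run of pyrimidines, the terminal oligopyrimidine (TOP) motif, through which mTORC1 and the RNA-binding protein LARP1 control their translation together. Ribosomal proteins are made in excess of need at times, and unassembled copies are removed by the proteasome.

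The 6 libraries form 3 groups of 2. The first is CHL-1 edited by CRISPR at SNORD50A/B, paired genes of box C/D small nucleolar RNAs. The second is CHL-1 without that edit, given 10 mM AZC (L-azetidine-2-carboxylic acid, a proline analog that is built into proteins) with 20 µM of the proteasome inhibitor MG132 for 20 minutes. The third is untreated parental CHL-1. All cells grew in DMEM with serum and were lysed with cycloheximide, and in each group 1 library is labelled as depleted of ribosomal RNA. The sources used here do not say whether the edited line is 1 clone. Each group was deposited as 1 table with no column per library, so no spread between replicates exists, no test was run, and every difference below is between single tables. Summed depth, in units of 1000000, was 586.4 in the CRISPR table, 367.3 in the AZC + MG132 table and 473.7 in the parental table. The edit could not be checked, since these tables follow messengers. Of 9 melanocyte lineage markers, 4, 3 and 2 lay above the level minimum in the CRISPR, AZC + MG132 and parental tables. In levels per 1000000 of total depth, SOX10 stood at 352.5, 322.5 and 395.7, MITF at 9.47, 3.94 and 5.97 and DCT at 15.8, 7.55 and 4.14. S100B, also of the lineage list, stood at 32.5, 41.4 and 29.8. Of the markers of dedifferentiated melanoma, NGFR stood at 4.81, 19.6 and 31.8 and AXL at 10.4, 9.13 and 10.4. NGFR lay under the minimum in the CRISPR table, MITF in the AZC + MG132 and parental tables, and DCT in the parental table. The keratinocyte marker KRT10 passed the minimum in each table at 7.77, 8.28 and 11.6. The part of these differences in the results below was not tested. TYR, TYRP1, GPR143, EGFR, 3 other keratinocyte markers and the epithelial and endothelial markers had no named row in any of the 3 tables. Of the blood markers PTPRC alone was listed, in the CRISPR table, under the minimum.

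The starts of the transcripts are shown first, because the TOP motif is what these messengers are known to share. A start was called a pyrimidine start where the first base is C and at least 4 further bases are each C or T, on the transcribed strand. In the RefSeq promoter table of build GRCh38.p14, 26 members had an entry that was used. Of these members, 19 had a pyrimidine start in at least 1 entry. Of all 35116 promoters, counted by entry and not by gene, 4.07% had one. Among the genes compared below between the AZC + MG132 and parental tables, 493 had a pyrimidine start and 5606 did not. Below, 5 bases before the start and 20 bases from it are printed, with the pyrimidine run in capitals.
RPS12 (chr6:132814564-132814588, plus strand): gaggcCTCTTTCCCTgccgccgccg
RPS24 (chr10:78033858-78033882, plus strand): tggttCTCTTTTCCTCCTTggctgt
RPS27 (chr1:153990757-153990781, plus strand): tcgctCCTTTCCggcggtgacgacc
RPS19 (chr19:41860250-41860274, plus strand): tcgttCCCTTTCCCCTggctggcag
RPS6 (chr9:19380217-19380241, minus strand): tggccCTCTTTTCCgtggcgcctcg
RPS18 (chr6:33272070-33272094, plus strand): ccgctCTCTCTTCCacaggaggcct
RPS3 (chr11:75399513-75399537, plus strand): cacttCCTTTCCTTTCagcggagcg
RPS16 (chr19:39435930-39435954, minus strand): gctttCCTTTTCCggttgcggcgcc
RPS26 (chr12:56041913-56041937, plus strand): acctcgattttcttccgccatccgg
RPS29 (chr14:49598691-49598715, minus strand): gcagctggcagcggtggttgtttct
RPS27L (chr15:63157458-63157482, minus strand): cgagcgcagatcgcttgcagcttgc
The first 6 had lower footprint depth after AZC + MG132 than in the parental table, RPS3 and RPS16 were among the members highest in the CRISPR table relative to the parental one, and the last 3 had the highest ratios after AZC + MG132. RPS12 and RPS24 carried pyrimidine runs of 10 and 14 bases, and the annotated starts of RPS26, RPS29 and RPS27L had none. These were picked by their ratios, and runs as long stand in members that were not lower after AZC + MG132, with 12 bases in RPS21, 11 in RPS3 and 10 in RPS14 (coding log2 ratios of 0.15, 0.11 and 0.04). An annotated start need not be the one used in these cells.

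Ribosomes were spread over the coding sequences of all members. Between 190 and 200 of the 200 coding bins were covered in every member and table. Depth was not even, and the 10 neighbouring bins with most depth held between 7.62% (RPS9) and 19.2% (RPS24) of a member's coding depth in the CRISPR table and up to 24.5% (RPS19) after AZC + MG132. To compare genes, coding depth was divided by the table's coding total in units of 1000000 and by coding length in kilobases, here called the coding level per kilobase. Lengths could be read from the bins for 31 members and ran from RPS29, the shortest, to RPSA with 888 bases; those of RPS12 and FAU could not. The median level per kilobase was 1112 in the CRISPR, 889 in the AZC + MG132 table and 1014 in the parental table.

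Without RPS27L the members spanned 4.06-fold in the CRISPR, 4.70-fold in the AZC + MG132 table and 4.73-fold in the parental table. Within 2-fold of the median were 28 members in the CRISPR table, 29 in the AZC + MG132 table and 29 in the parental table. RPS18, a protein of the subunit's head, stood at 2039, 1334 and 2011 per kilobase. RPS19, a head protein whose mutation causes Diamond-Blackfan anaemia, stood at 2056, 1293 and 2003. RPS24, RPS27 and RPS7 followed in the parental table at 1599.7, 1594 and 1457. RPS21 was among the lower members at 632, 592 and 534.

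RPS27L, a paralog of RPS27 and a known p53 target, stood apart from all others. Its coding level per kilobase was 66.5 in the CRISPR, 59.5 in the AZC + MG132 table and 38.1 in the parental table. The median of the members was 16.7, 14.9 and 26.6 times that. RPS27 itself stood at 1318, 908 and 1594, so RPS27L was higher and RPS27 lower than in the parental table in both the edited and the treated cells. Both comparisons use the same single parental table, so the second is not a separate observation. The mean depth per coding base of RPS27L was 33.1, 17.1 and 15.5, the thinnest of all members, and reads that both paralogs can share are not separable here.

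**Figure D1:**
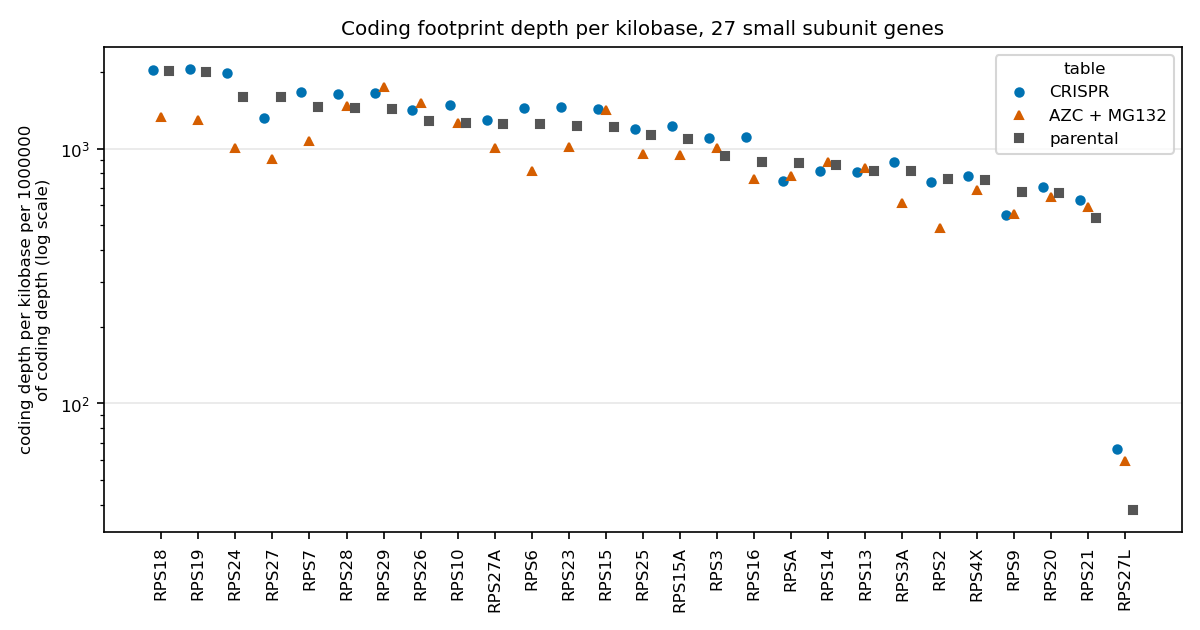
Coding depth per kilobase per 1000000 of coding depth (vertical axis, log scale) for 27 members with a known coding length, ordered by the parental value; circles are the CRISPR table, triangles AZC + MG132 and squares parental, 1 value per table. RPS18 and RPS19 lead in the parental table, and RPS27L lies far below the others at 66.5, 59.5 and 38.1.

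After 20 minutes of AZC + MG132 the members as a set had less footprint depth than in the parental table. The median log2 ratio of the 33 members was -0.25 over all 400 bins, against -0.05 over the 7277 genes compared. Coding bins alone gave -0.21, against -0.02. Below 0 were 23 of 33 members, beside 55.3% of all genes compared over all bins and 52.1% over coding bins. The 52 large subunit genes compared had a median of -0.25 over all bins and -0.23 over coding bins, close to the values of the small subunit. Member ratios below are from coding bins unless all bins are named, because in many members the bins named 5′ UTR repeat coding bases (described with the UTR values).

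RPS12, a protein of the subunit's beak, was the member with the lowest ratio and the only one 2-fold or more lower, where 2.39% of all genes compared were 2-fold or more lower over all bins and 2.82% over coding bins. Its coding level, the coding depth per 1000000 of the table's coding depth, was 294.5 in the CRISPR table, 118.7 in the AZC + MG132 table and 264.9 in the parental table. The log2 ratio of AZC + MG132 to parental was -1.16 over coding bins and -1.06 over all bins. It stood at -0.94 in the first 100 coding bins and at -1.46 in the last 100. When totals were taken without the top 1% of rows, its all-bin ratio came short of 2-fold, and no member was then 2-fold lower.

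RPS27 and RPS24 came next. RPS27 had a coding level of 231.5 after AZC + MG132 against 406.6 in the parental table, a ratio of -0.81. RPS24 had 398.9 against 633.5, a ratio of -0.67. RPS2, near the messenger entry, was at -0.63 (a coding level of 432.8 against 671.4). RPS19 was also at -0.63, RPS6, the substrate of S6 kinase, at -0.62 (612.1 against 940.4), and RPS18 at -0.59. In 21 of 33 members the first and the last 100 coding bins were both below the parental table, beside 34.1% of all genes compared. RPS19 stood at -0.49 in the first and -1.02 in the last 100 bins.

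Other members were above, near or slightly below their parental level. RPS27L was at 0.64 (a coding level of 15.2 against 9.72), RPS29 at 0.30 (354.7 against 287.8), RPS26, at the messenger exit, at 0.24 (527.2 against 447.9) and RPS15 at 0.21. RPS14, the gene of the 5q- syndrome, was at 0.04, RPS28 at 0.03 and FAU, a fusion of a ubiquitin-like protein with eS30, at -0.01. RPS3, at the messenger entry, was at 0.11 (787 against 731). RPS4X, the X-linked copy of eS4, was at -0.14 and RPSA at -0.18, near the median of the members. No member was 2-fold or more higher, beside 1.32% of all genes compared over coding bins.

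**Figure D2:**
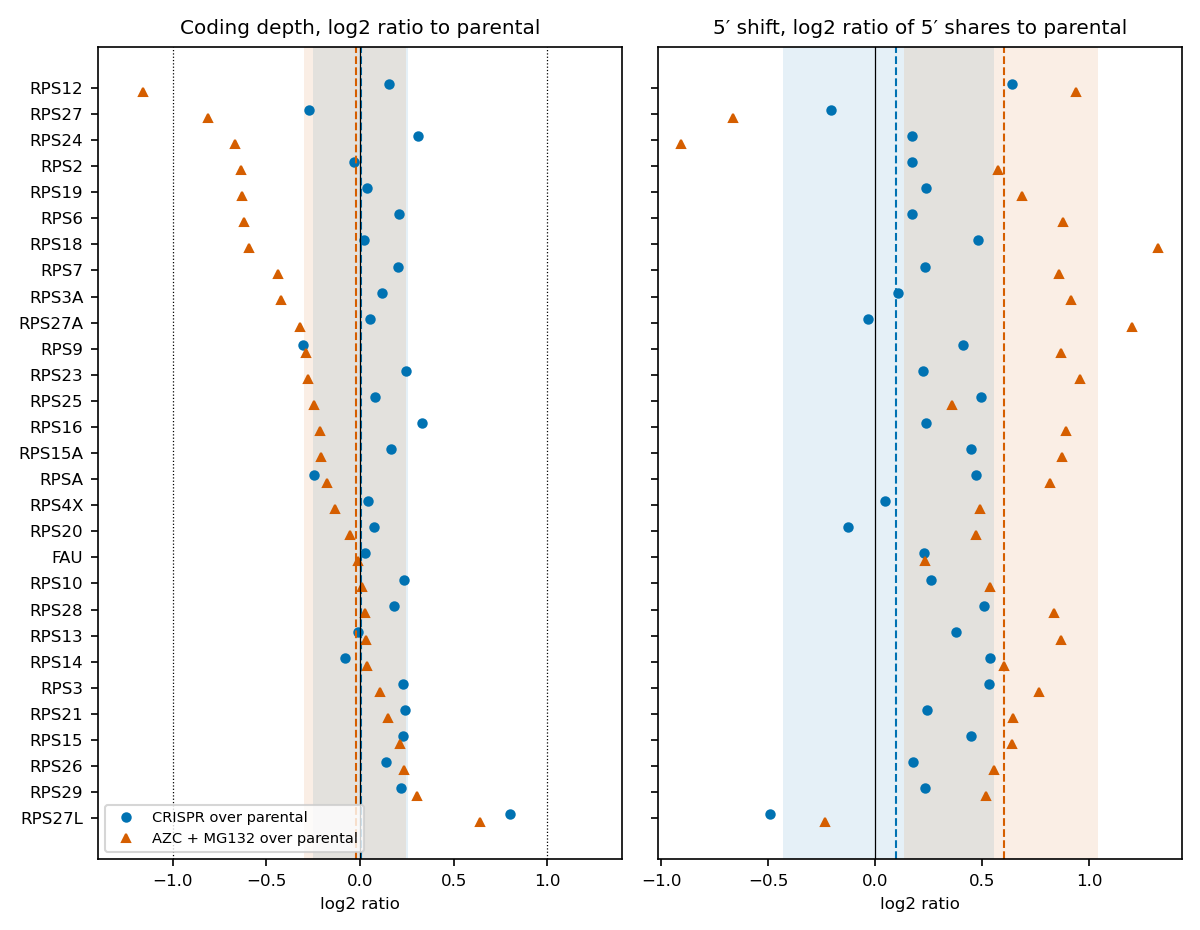
Left, log2 ratio of coding depth to the parental table for 29 members, and right, the 5′ shift; circles are CRISPR over parental and triangles AZC + MG132 over parental, dashed lines and bands are the median and the quartiles of all genes compared, and dotted lines mark 2-fold. RPS12 lies past the 2-fold line at -1.16 after AZC + MG132, and RPS27L is the rightmost member on the left side in both comparisons (0.80 and 0.64).

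The ratios were also read by the start of the transcript. The 19 members with a pyrimidine start had a median coding ratio of -0.28 in the AZC + MG132 against the parental table, with 14 of them below 0. The 7 members whose annotated start lacked it (RPS15, RPS26, RPS27L, RPS28, RPS29, RPS4X and RPS7) had a median of 0.21, with 2 below 0. These ranges overlapped: members with the motif ran from -1.16 to 0.15 and those without it from -0.44 to 0.64. Among all genes compared, the 493 with a pyrimidine start had a median of -0.10 and the 5606 without it -0.01. In the CRISPR against the parental table the members' medians were 0.08 with the motif and 0.20 without it. The split has no test, and the 7 members without an entry that was used are not in it. Coding length moved weakly with the same ratio, with a Spearman rho of -0.30 over 31 members that share the table totals.

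Members in the edited line differed little from the parental line. The median log2 ratio of CRISPR to parental was 0.13 over all bins and 0.12 over coding bins, against 0.0040 and 0.0052 over all genes compared. Over coding bins 26 of 33 members were above 0 and 7 below, where 49.4% of all genes compared were below. None of the 33 was past 2-fold, beside 2.4% of all genes compared over all bins and 3.17% over coding bins, and the large subunit median was -0.0026.

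RPS27L had the highest ratio in the edited line, at 0.80 (a coding level of 16.97 against 9.72). RPS16 followed at 0.33 (490.5 against 389.7). RPS24 was at 0.31 (784.0 against 633.5) and RPS3 at 0.23 (857 against 731). RPS6 was at 0.21, with a coding level of 1085 against 940.4, the highest coding level of any member in both tables before division by length. Among the lowest were RPS9 at -0.30 (321.6 against 397.1), RPS27 at -0.28 and RPSA, the laminin receptor homolog, at -0.25 (661 against 784). RPS2, RPS13, RPS18, RPS19, RPS4X and FAU were all within 0.05 of 0. The spread of the members was narrower than that of all genes, with quartiles of 0.03 and 0.23 for the members and -0.25 and 0.26 for all genes compared, which include many rows of lower depth.

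Set directly against the treated cells, the edited line had more footprint depth on most members. The median log2 ratio of CRISPR to AZC + MG132 was 0.42 over all bins and 0.32 over coding bins, against 0.06 and 0.02 over all genes compared. RPS12 was 2-fold or more higher at 1.27 over all bins and 1.31 over coding bins, and RPS24 was at 1.16 over all bins and 0.97 over coding bins. Of all genes compared, 4.13% over all bins and 4.62% over coding bins were 2-fold or more higher. RPS6 stood at 0.83. Towards the low end RPS14 was at -0.12, RPS26 at -0.10 and RPS29 at -0.09. This comparison uses the same AZC + MG132 and CRISPR tables as the comparisons above and adds no separate evidence.

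Within the coding sequence, ribosomes of the treated cells lay further towards the start. As a measure, the 5′ share divides mean depth in the first 20 coding bins by mean depth in all 200, so that 1 means an even spread. Its median over the 33 members was 1.14 in the CRISPR, 1.63 in the AZC + MG132 table and 0.89 in the parental table. The 5′ shift, the log2 ratio of 5′ shares, had a median of 0.64 for AZC + MG132 against parental, close to the 0.60 of all genes compared, and 30 of 33 members were above 0, beside 79.7% of all genes. For CRISPR against parental it was 0.23, against 0.10 over all genes, with 26 of 33 members above 0, beside 55.9% of all genes. Large subunit genes had a median shift of 0.79 after AZC + MG132 (49 of 51 above 0) and 0.21 in the edited line (33 of 50). For other TOP messengers the medians were 0.78 (17 of 17 above 0) and 0.22 (15 of 17).

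The profile, in 20 windows of 10 coding bins, showed where the depth lay. Scaled to each member's mean, the first window had a median of 1.27 in the CRISPR, 1.56 in the AZC + MG132 table and 0.82 in the parental table. It was higher than in the parental table in 28 of 33 members of the edited line, beside 52.4% of all genes, and in 31 of 33 members after AZC + MG132, beside 75.3%. These shares of all genes also count genes without depth in the window. Depth in both tables was found in 6156 of 7060 and 6571 of 7063 genes, and in all 33 members. The median log2 ratio of this window was 0.38 and 0.83 in the members and 0.19 and 0.71 over all genes with depth in it. In window 15 of 20 of the treated cells, 1 member of 33 was above its parental value, beside 37.5% of all genes. That share also counts genes without depth there, and 6544 of 7063 had depth in both tables. The median log2 ratio was -0.50 in the members and -0.24 over all genes with depth in it. In the edited line no window after the fourth had a median outside -0.14 to 0.03.

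**Figure D3:**
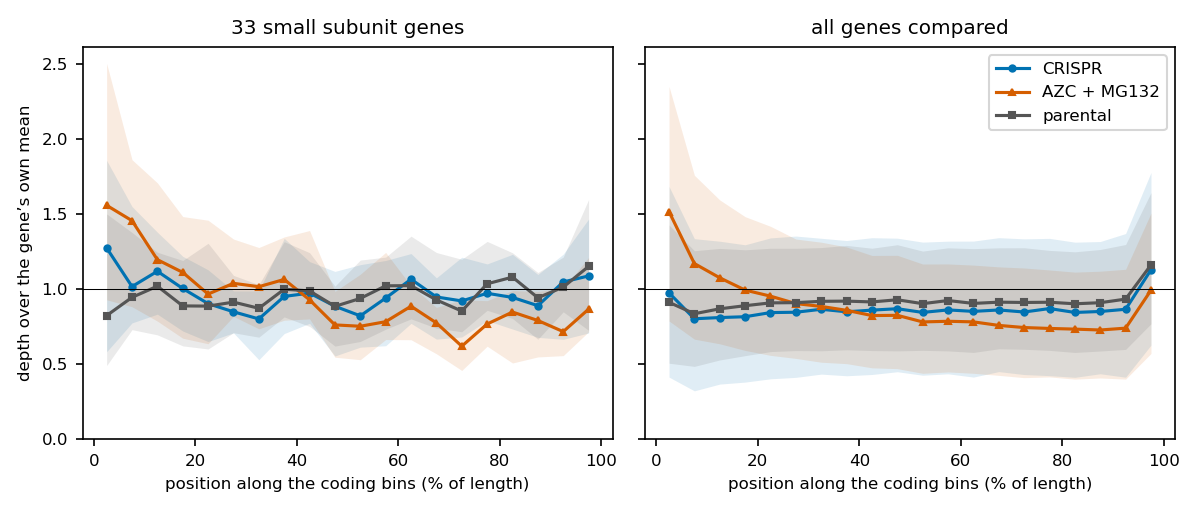
Median depth in 20 windows of 10 coding bins, each gene scaled to its own mean, for the 33 members (left) and all genes compared (right); lines are the CRISPR, AZC + MG132 and parental tables and bands are quartiles over genes. The AZC + MG132 line starts highest, at 1.56 in the members, and runs below the other lines in the later windows.

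Single members departed from this. RPS18 had the largest 5′ shift after AZC + MG132, 1.32, with 5′ shares of 2.02 in the AZC + MG132 table and 0.81 in the parental table. RPS27A, which encodes ubiquitin fused to eS31, followed at 1.202 (1.32 against 0.58). In 3 members the shift was negative, and these were RPS24 at -0.91, RPS27 at -0.67 and RPS27L at -0.24.

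The first 10 coding bins of RPS24 held 3.84 times its mean depth in the CRISPR, 0.78 times in the AZC + MG132 table and 3.46 times in the parental table. Its later peak, in window 13 of 20, stood at 1.69, 1.93 and 1.92 times its mean in the CRISPR, AZC + MG132 and parental tables. With the first and last 20 coding bins left out, its ratio of AZC + MG132 to parental was -0.43 instead of -0.67. The correlation of its 200-bin profile was 0.97 between CRISPR and parental and 0.43 between AZC + MG132 and parental, the lowest of all members. Over the members these correlations had medians of 0.91 and 0.77, where neighbouring bins share footprints.

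In RPS27A the first 96 coding bins hold the 76 codons of ubiquitin. Mean depth per bin there was 0.53 times that of the ribosomal part in the CRISPR, 0.87 times in the AZC + MG132 table and 0.58 times in the parental table. Against parental, the ubiquitin bins of the treated cells stood at a log2 ratio of 0.03 and the eS31 bins at -0.55. Some reads of the ubiquitin part can come from the other ubiquitin genes.

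In the edited line RPS12 had the largest 5′ shift, 0.64 (5′ shares of 1.34 in the CRISPR and 0.86 in the parental table), before RPS14 at 0.54 and RPS3 at 0.53. The lowest were RPS27L at -0.49 and RPS27 at -0.21. RPS12 was also shifted after AZC + MG132, by 0.94, against the same parental table.

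**Figure D4:**
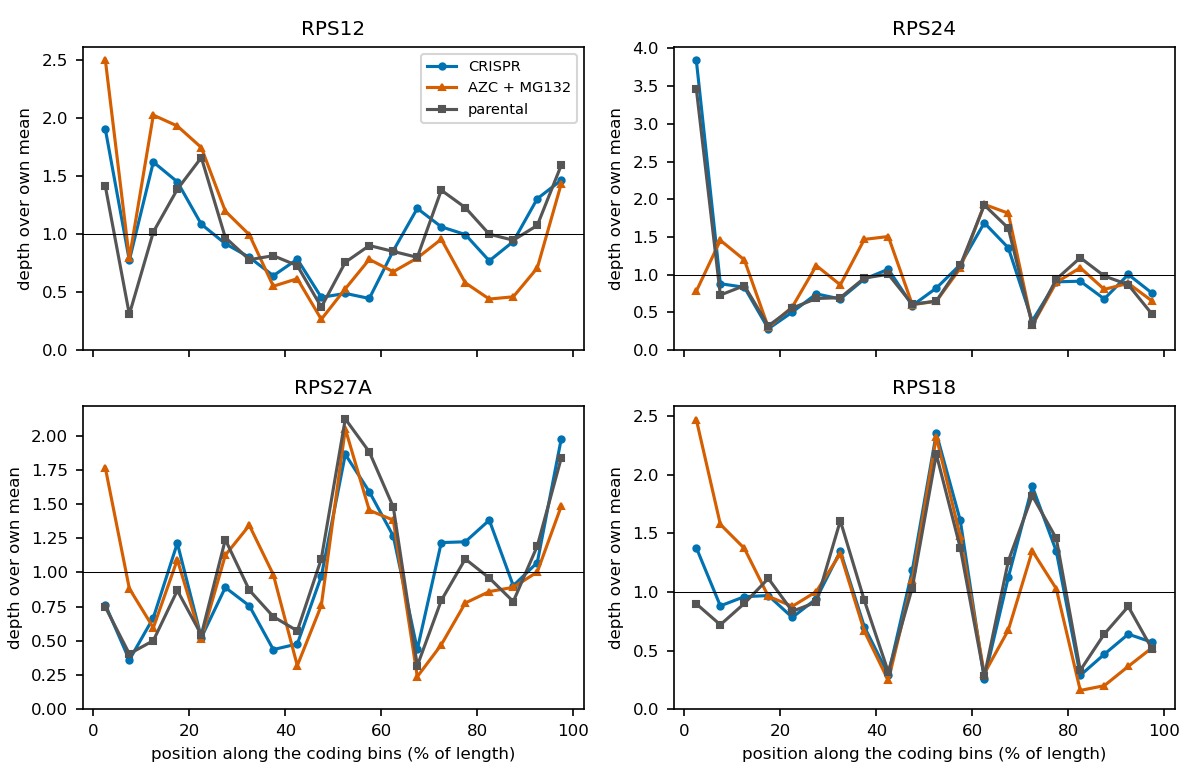
Depth in 20 windows along the coding bins of RPS12, RPS24, RPS27A and RPS18, each scaled to the gene's own mean in that table; lines are the CRISPR, AZC + MG132 and parental tables, 1 table each. In RPS24 the first window stands at 3.84 in the CRISPR, 0.78 in the AZC + MG132 table and 3.46 in the parental table, while in RPS18 the AZC + MG132 line is highest in the first window.

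Bins named 5′ UTR did not hold only 5′ UTR. In 20 of 33 members the 5′ UTR is shorter than its 100 bins, and the bins past its end repeated the depth of the coding sequence. For RPS2 a 5′ UTR of 23 bases was recovered, and the depth of its 94 later 5′ UTR bins followed the depth computed from its coding bins with a correlation of 0.98. The 20 members had recovered 5′ UTRs of 23 to 93 bases, and this correlation ran from 0.69 (RPS3A) to 0.98, as a description of the files. As a consequence the bins named 5′ UTR held 113.7%, 118.7% and 109.6% of the coding depth of RPS28 in the CRISPR, AZC + MG132 and parental tables, and over 100% also for RPS27 and RPS29. Summed over 400 bins, such members count part of their coding depth more than once. In RPS29 the coding bins in turn ran on into the 3′ UTR.

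**Figure D5:**
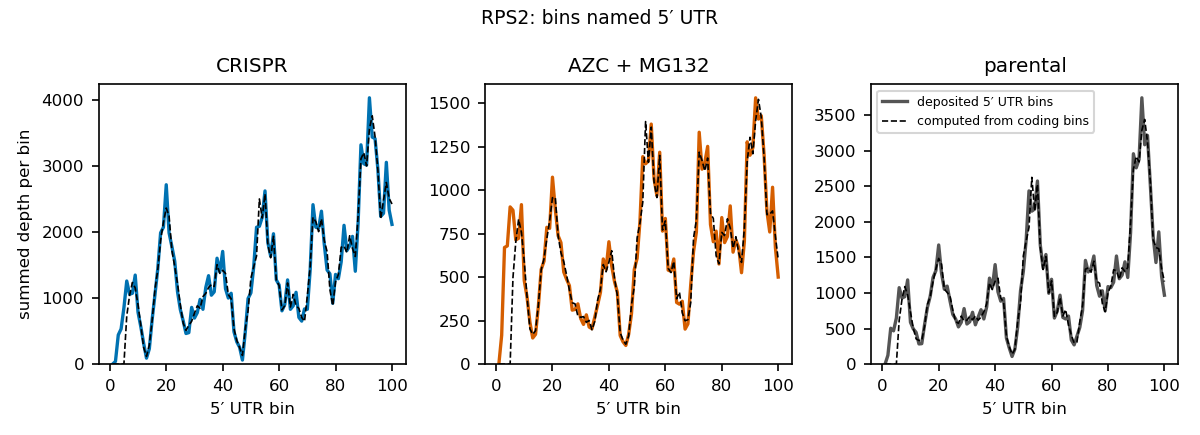
Depth per bin in the 100 bins named 5′ UTR of RPS2, in the CRISPR, AZC + MG132 and parental tables from left to right; coloured lines are the deposited bins after conversion from log2 and black dashed lines are the depth computed from the coding bins for a 5′ UTR of 23 bases. The lines overlie each other past the first bins.

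With the bins before the coding start only, depth upstream of the start codon was higher after AZC + MG132 in all 20 of these members. Its median was 1.39% of coding depth in the CRISPR, 3.15% in the AZC + MG132 table and 1.34% in the parental table. RPS12 had the highest share, with 14.3%, 25.7% and 12.5%, followed after AZC + MG132 by RPS25 at 14.7% (9.17% in the parental table) and RPS16 at 13.99% (5.53%). In the edited line 13 of 20 were higher than in the parental line. The bins before the coding start were not compared over all genes. Over all 5′ UTR bins, 31 of 33 members were higher after AZC + MG132 and 27 of 33 in the edited line. Of the genes with depth there in both tables, 84.3% and 58.3% were higher, and of the large subunit genes 51 of 52 and 32 of 52. On that measure the median log2 ratio after AZC + MG132 was 0.68 in the members, 0.67 in the large subunit and 0.87 over all such genes. In the edited line it was 0.14 in the members and 0.14 over all such genes. A footprint on the start codon also covers bases before it, and such footprints cannot be told apart from upstream ones in these bins.

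Depth in the bins named 3′ UTR was small. Its median was 2.32% of coding depth in the CRISPR, 2.55% in the AZC + MG132 table and 2.02% in the parental table. It was higher than parental in 27 of 33 members after AZC + MG132, beside 68.5% of the genes with depth there in both tables, and in 25 of 33 in the edited line, beside 58.3%. Median log2 ratios of the 3′ UTR share were close to those of all such genes, 0.59 against 0.59 after AZC + MG132 and 0.20 against 0.21 in the edited line, and the large subunit had 41 of 51 and 39 of 51 higher. RPS28, a small protein near the messenger exit, had 22.2% after AZC + MG132 against 3.45% in the CRISPR and 3.14% in the parental table. RPS29 had 14.6%, 20.97% and 14.4% in the CRISPR, AZC + MG132 and parental tables. RPS26 and RPS27L both reached 12.5% after AZC + MG132, against 4.19% and 1.98% in the parental table. Lengths of the 3′ UTRs were not recovered, so whether these bins run on past the end of a short 3′ UTR was not checked.

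Related gene lists are given beside the members by their coding ratios. After AZC + MG132 the cytosolic members had a median of -0.21 with 10 above 0, the 26 small subunit biogenesis factors 0.18 with 20 above 0, and the 32 mitochondrial small subunit genes 0.16 with 21 above 0. The other 18 TOP messengers had a median of -0.19, with 11 below 0 and 7 above, where 52.1% of all genes compared were below 0. Of these 18, 2 were 2-fold or more lower, beside 2.82% of all genes compared. They were PABPC1, the poly(A)-binding protein, at -2.56 and TPT1 at -1.53. The 16 mTORC1 pathway genes compared had a median of 0.03, with 8 above 0 and 8 below. At their extremes DDIT4, an inhibitor of mTORC1, was at 2.81 (a coding level of 65.1 against 9.28) and EIF4EBP2, a repressor of eIF4E, at -2.12 (2.61 against 11.3). Over all bins they were at 2.72 and -1.17. EIF4EBP2 lay close to the minimum after AZC + MG132, at 7.43 per 1000000 of total depth against 16.7 in the parental table. The first genes of the large subunit by size were RPL12 at -1.58 and RPLP1 at -1.11. In the edited line none of the small subunit biogenesis, mTORC1 or other TOP genes compared was past 2-fold. NOB1, the nuclease of the last 18S cleavage, was at -0.84, the large subunit genes RPL13 and RPL18 at -0.81 and -0.64, and the elongation factor subunits EEF1B2 and EEF1G at 0.47 and 0.44. MRPS21, a mitochondrial small subunit gene, was at -2.71 over coding bins and -2.54 over all bins. Its level was 6.79 per 1000000 of total depth in the CRISPR table, close to the minimum, against 39.6 in the parental table. No other mitochondrial small subunit gene was past 2-fold, where 3.17% of all genes compared were over coding bins. That list had a median of 0.17 over coding bins, against 0.12 in the members, with 21 of 32 above 0 and 11 below.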

How the data were processed

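Ribosome footprints were deposited by the authors as 3 tables, 1 per group, of log2(x + 1) values in 400 bins per RefSeq transcript, where x adds up read depth over the bases of a bin. The submitters' processing notes name Bowtie2, TopHat2 and hg19, without versions. The sources used here do not say how both libraries of a group were combined. Bins 1 to 100 are named 5′ UTR, the next 200 coding and the last 100 3′ UTR, as the values show.

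Values were turned back to depth, and in coding bins the deposited value of the row above, which the authors' tables carry, was subtracted; 100% of low coding bins (log2 under 4) were then whole within rounding, against 5.23% to 5.80% as deposited. Levels are depth per 1000000 of a table's total, or of its coding total for coding bins, with a pseudocount of 0.5 in ratios. Genes were compared where both tables' row sums exceeded the lower quartile (3697, 2614 and 3187 in the CRISPR, AZC + MG132 and parental tables). A limit of 2-fold is one of size and not a test. Coding lengths and short 5′ UTRs were recovered from bin widths, since a region with fewer bases than bins runs on past its end; the run-on was accepted with a correlation of at least 0.65 and a length that matched the bin widths. The all-bin level was the planned measure, and coding bins are given beside it because of the run-on. No protein sequences were used, so bins with proline codons were not compared.

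Gene names came from the RefSeq table of GRCh38.p14, used for names and start sequences only; 237, 211 and 219 rows had no name and stayed in the totals. Members, lists and named genes were chosen with earlier results of these data known. Named members are those past 2-fold, the 3 highest and 3 lowest ratios and 5′ shifts, the 5 highest and 3 lowest levels per kilobase, the 3 highest UTR shares and a fixed set; of other lists, the 2 largest ratios. Rows that share reads are uncertain (RPS27 and RPS27L, RPS10 and its readthrough gene, and processed pseudogenes). Values of 4 members are not reported here one by one; counts and medians cover all 33. No counting interval could be given, since depth counts bases and the number of fragments is unknown. The steps were tested on simulated tables. Python 3.11.15, numpy and pandas were used.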

Additional observations from a re-analysis of the deposited data

How the results depend on the processing

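No paired analysis was possible because the tables hold no column per library, and for the same reason no library could be left out. The median ratio of the members kept its sign under all 14 alternatives of each comparison. For AZC + MG132 against parental it was -0.10 in the first 100 coding bins. For CRISPR against AZC + MG132 it was 0.27 without the first and last 20 coding bins, 0.30 in the first 100 coding bins and 0.31 with coding bins scaled to the median ratio. Members 2-fold or more lower after AZC + MG132 numbered 1 as reported, 0 with the top 1% of rows taken out of the totals and 3 in the last 100 coding bins (RPS12 and RPS19 among them). In those last bins 1 member, RPS27L, was 2-fold or more higher than parental in each of the AZC + MG132 and CRISPR tables. No share of all genes past 2-fold is given for the last 100 coding bins or for totals without the top 1% of rows. Counts of members in these settings therefore have no base over all genes. Members below parental in the CRISPR table numbered 10 in the first 100 coding bins, against 6 over all bins. Members 2-fold or more higher in CRISPR than in AZC + MG132 numbered 2. With coding bins, alone or together with the row of most coding depth or scaling to the median ratio, there was 1. There was also 1 with inner coding bins, and there were 3 in the last 100 coding bins (RPS12 and RPS19 among them). The median 5′ shift was 0.38 for CRISPR and 0.83 for AZC + MG132 with the first 10 coding bins, and 0.53 for AZC + MG132 with the first 40. The median log2 ratio of the 5′ UTR share after AZC + MG132 was 0.68 over all 5′ UTR bins and 1.18 over bins before the coding start. The alternatives that combine coding bins with another choice, and the bins before the coding start, were chosen after seeing the data. The cause of these differences was not tested, except that fewer bins enter by construction. RPS27L fell under a minimum 4 times higher, and its depth limits its ratios.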
